A study of Mus musculus with 10 samples.

Results

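Cort, Cenps and Znf41-ps are 3 genes on mouse chromosome 4 that stood among the larger differences between LSD1 knockout and wild-type splenic B cells and that lie within 15 Mb of Kdm1a, the gene encoding LSD1. They are 3 of the 9690 genes in the deposited table of mRNA per cell, and 3 of the 229 of these genes, Kdm1a itself included, that start or end within that distance. They were chosen for their knockout differences, so their knockout values below are a description and carry no p-value. All 3 are in the table and passed the filter on low values (at least 0.3 mRNA per cell in at least 2 libraries), Cort through its knockout libraries alone.

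The 10 libraries, each from 50000 sorted spleen cells of unstimulated female C57BL/6J mice, hold poly(A)-selected RNA. Marginal zone B cells (MZB), sorted as CD1d+ CD21hi CD23-, gave 2 knockout (KO) and 3 wild-type (WT) libraries. Follicular B cells (FoB), sorted as CD1d- CD21mid CD23+, gave 3 KO and 2 WT libraries. Both gates also took B220+ cells without Thy1.1, F4/80, CD11b, CD93 or GL7, and WT and KO share all of these labels except LSD1 status. The deleting Cre, its promoter, the exons removed, the age of the mice and the number of animals behind each group were not found in the labels. Replicates may therefore come from the same animals, and p-values then measure only the spread between these libraries.

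LSD1 is a demethylase that takes methyl groups off histone H3 and works in corepressor complexes with CoREST, to which DNA-binding repressors such as GFI1 bring it. Cort encodes the precursor of cortistatin, a small secreted peptide close to somatostatin that acts on somatostatin receptors and is known best from inhibitory neurons of the cerebral cortex. Cenps encodes a small histone-fold protein, also called MHF1. With its partner CENP-X it is part of the inner centromere, where chromosomes attach to the spindle, and it also anchors the helicase FANCM of the Fanconi anaemia DNA repair pathway. Znf41-ps is a transcribed zinc finger pseudogene in the RefSeq annotation, in a stretch of chromosome 4 that also holds KRAB zinc finger genes, whose proteins typically silence DNA repeats through the corepressor TRIM28.

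On the mm10 build, Cort (Entrez 12854) spans chr4:149125034-149126763 and Cenps (Entrez 69928) spans chr4:149128349-149137600, both on the minus strand. Cort thus lies just downstream of Cenps in the same orientation, with 1585 bp between the RefSeq gene bodies. In GENCODE M21 a Cenps transcript classed for nonsense-mediated decay, Cenps-203, ends 357 bp before the start of Cort, and 0 of the 7 annotated Cenps transcripts overlap Cort. In human the same pair of genes has an annotated read-through transcript, CENPS-CORT. The deposited table has 1 value per gene, so transcripts that run across both genes were not analysed here. Znf41-ps (Entrez 70005) spans chr4:145789515-145831978 on the plus strand. Cort, Cenps and Znf41-ps lie 12.5, 12.5 and 9.19 Mb beyond Kdm1a (chr4:136550533-136602787), all toward the distal end of the chromosome.

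The 300-base start regions of Cort and Cenps are shown because these neighbouring genes were high in the same libraries (below) although each has a start site of its own. They run from 250 bases before to 50 bases after the annotated start, 5′ to 3′ on the gene's strand, from RefSeq on GRCm38.p6, and capitals mark matches to the motif AAATCA, the core bound by GFI1, on either strand. Cort is at chr4:149126714-149127013 and Cenps at chr4:149137551-149137850, both on the minus strand.
Cort: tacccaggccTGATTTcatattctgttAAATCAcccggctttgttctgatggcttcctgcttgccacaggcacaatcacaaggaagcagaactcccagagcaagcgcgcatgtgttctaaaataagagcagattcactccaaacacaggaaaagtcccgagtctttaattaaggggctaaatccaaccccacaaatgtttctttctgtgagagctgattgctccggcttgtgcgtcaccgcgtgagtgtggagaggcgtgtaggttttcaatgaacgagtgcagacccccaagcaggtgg
Cenps: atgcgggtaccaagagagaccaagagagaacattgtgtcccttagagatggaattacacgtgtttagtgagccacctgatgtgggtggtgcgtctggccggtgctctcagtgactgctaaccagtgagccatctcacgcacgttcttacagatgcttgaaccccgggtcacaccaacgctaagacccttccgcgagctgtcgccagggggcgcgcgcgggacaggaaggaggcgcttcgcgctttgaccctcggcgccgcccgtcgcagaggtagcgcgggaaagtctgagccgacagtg
AAATCA occurred in the Cort window at 2 places, 240 and 223 bases before the start, and in none in the Cenps window; 14.0% of the 32851 RefSeq start windows held at least 1 match. TATAAA (the core promoter box, in 13.6% of windows), GAGGAAGT (PU.1, 3.2%), CAGCTG (E-box, 16.3%) and an interferon response element (3.44%) were searched on both strands in the same way and had no match in either window. The Cenps window held 26 CG dinucleotides and the Cort window 10, against a median of 7 over all windows. The search found letters in a sequence and no measurement of binding was made. The table has no window for Znf41-ps.

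Depth differed between libraries. Whole read numbers could be recovered from the values of each gene, and they summed to between 4161051 and 6711847 per library. The total mRNA per cell differed more, from 105590 to 121071 in KO MZB, 74815 to 99800 in WT MZB, 43562 to 55704 in KO FoB and 45237 to 56438 in WT FoB. Differences are therefore given per cell and after rescaling, in which each library is divided by its typical ratio to the mean library so that a value is relative to the other genes. In KO MZB minus WT MZB the median gene differed by 0.32 per cell and 0.04 rescaled on the log2 scale, in KO FoB minus WT FoB by −0.05 and −0.01. Of all genes, 14.0% were called per cell and 5.69% rescaled in MZB at a limma adjusted p (Benjamini-Hochberg) under 0.05, and 0.712% and 0.516% in FoB. The 8 marginal zone markers summed to 857 to 932 mRNA per cell in KO MZB and 700 to 888 in WT MZB, against 86.9 to 114 in KO FoB and 89.9 to 117 in WT FoB, as the labels have it. Rescaled, their median log2 difference in KO MZB minus WT MZB was −0.22, beside 0.04 for all genes. Of the 8, 1 differed upward and 2 (Cr2 and S1pr3) were called lower, beside 1.91% of all genes called lower.

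The targeted gene was lower in the knockouts. Kdm1a had 5.37 and 5.94 mRNA per cell in KO MZB, against 6.37, 8.36 and 7.90 in WT MZB, and 2.04, 2.36 and 1.93 in KO FoB, against 5.58 and 4.34 in WT FoB. Its log2 difference was −1.12 ± 0.19 (SE) in FoB (limma adjusted p = 4.31e-05). In MZB it was −0.39 ± 0.19 per cell (limma adjusted p = 0.118) and −0.67 ± 0.07 rescaled (limma adjusted p = 0.000667). One library stood apart for the genes below: KO FoB library 2 had Cort and Cenps at WT FoB level while its Kdm1a, 2.36 mRNA per cell, was as low as in the other KO FoB libraries. The FoB differences and pooled ratios of Cort and Cenps, the correlations of Cort with the other members and Kdm1a, and the FoB difference of Dhrs3 are also given without it.

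Cort had the largest positive log2 difference of all 9690 genes in KO MZB minus WT MZB, both per cell and rescaled. It had 3.70 and 2.74 mRNA per cell in KO MZB (31 and 25 reads), against 0.142, 0.0953 and 0.102 in WT MZB (2, 1 and 1 reads). In KO FoB it had 1.79, 0.121 and 0.856 mRNA per cell (25, 2 and 18 reads), against 0.116 and 0.218 in WT FoB (2 and 4 reads). Every KO MZB library lay far above every WT MZB library, while in FoB the KO libraries 1 and 3 lay above both WT libraries and KO library 2 lay between them. Higher in KO without overlap were also 56.9% of all genes per cell and 27.2% rescaled in MZB, so that separation alone is common there.

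The size of the Cort difference rests on few reads in the WT libraries. The log2 difference on the log2(value + 0.3) scale was 3.08 ± 0.24 (SE) in MZB and 1.12 ± 0.24 in FoB, and 2.58 ± 0.55 and 1.27 ± 0.55 after rescaling. The pseudocount shrinks these values for a gene this low. The per-cell SE is moderated, with its spread taken mostly from all genes (prior of 86.9 degrees of freedom). On this scale the within-group SD of Cort itself was 0.96 in FoB and 0.18 in MZB, so the SE understates its spread in FoB. With reads pooled within groups, the KO MZB level was 27.5 times that of WT MZB (exact 95% interval 10.2 to 104.5, counting error only) and the KO FoB level 5.19 times that of WT FoB (2.21 to 14.9). Without KO FoB library 2 the FoB log2 difference was 1.74 and the pooled ratio 7.30 (3.09 to 21.0). Among the levels of all genes, Cort stood at the 31.7th percentile in KO MZB and the 0.0929th in WT MZB, so in WT MZB it was among the lowest genes in the table, and at the 22.4th in KO FoB and the 1.95th in WT FoB.

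Cenps ranked sixth from the top in KO MZB minus WT MZB, per cell and rescaled, and it was measured on more reads than Cort. It had 3.48 and 3.28 mRNA per cell in KO MZB (71 and 73 reads), against 0.437, 0.430 and 0.584 in WT MZB (15, 11 and 14 reads). In KO FoB it had 1.62, 0.572 and 1.17 mRNA per cell (55, 23 and 60 reads), against 0.712 and 0.403 in WT FoB (30 and 18 reads). As for Cort, both KO MZB libraries were above the 3 WT MZB libraries, and in FoB libraries 1 and 3 of the KO were above WT while KO library 2 fell between the WT libraries.

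The log2 difference of Cenps was 2.24 ± 0.20 (SE) in MZB and 0.68 ± 0.20 in FoB, and 1.85 ± 0.30 and 0.78 ± 0.30 after rescaling. Its own within-group SD per cell was 0.13 in MZB and 0.52 in FoB, where the moderated SE understates its spread. Pooled reads put the KO MZB level at 7.08 times that of WT MZB (exact 95% interval 4.96 to 10.3, counting error only) and the KO FoB level at 1.99 times that of WT FoB (1.42 to 2.82). Without KO FoB library 2 the FoB log2 difference was 0.99 and the pooled ratio 2.44 (1.73 to 3.49). Cenps stood at the 33.6th percentile of gene levels in KO MZB and the 0.846th in WT MZB, and at the 27.4th in KO FoB and the 11.3th in WT FoB. Cort and Cenps thus reached similar levels in KO MZB, with group means of 3.22 ± 0.681 and 3.38 ± 0.139 mRNA per cell (SD, n = 2 each), and the file's values run close to a per-length scale.

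**Figure D1:**
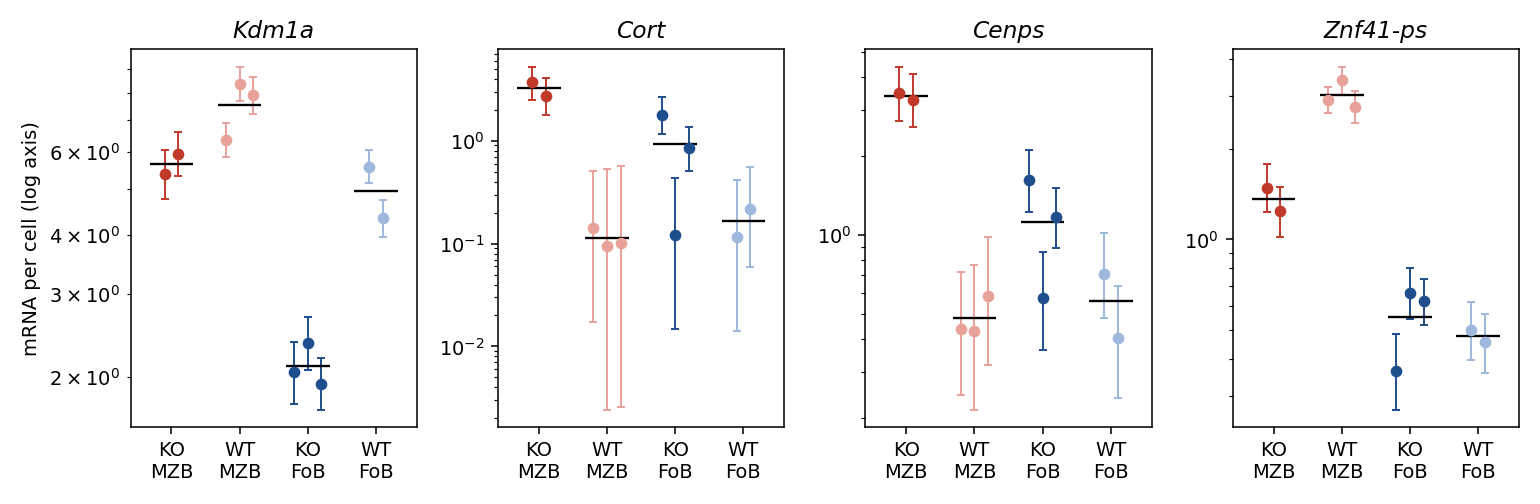
mRNA per cell (log axis, a different range in each panel) of Kdm1a, Cort, Cenps and Znf41-ps in each library by group, with exact 95% counting intervals as bars and the group mean as a black line. Cort and Cenps sit highest in KO MZB, and the KO FoB library at 0.121 mRNA per cell of Cort and 0.572 of Cenps lies at WT FoB level.

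Znf41-ps was lower in KO MZB than in WT MZB, and its 2 FoB groups overlapped. It had 1.49 and 1.24 mRNA per cell in KO MZB (120 and 109 reads), against 2.92, 3.39 and 2.78 in WT MZB (396, 343 and 263 reads). In KO FoB it had 0.365, 0.661 and 0.622 mRNA per cell (49, 105 and 126 reads), against 0.499 and 0.453 in WT FoB (83 and 80 reads). Both KO MZB libraries were below all WT MZB libraries, as were 2.07% of all genes per cell and 18.9% rescaled. In FoB KO library 1 was lowest and KO libraries 2 and 3 were highest.

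The log2 difference of Znf41-ps was −1.0 ± 0.19 (SE) in MZB, rank 23 from the bottom of 9690 genes per cell and rescaled, and −1.20 ± 0.17 after rescaling. In FoB it was 0.11 ± 0.19 per cell and 0.15 ± 0.17 rescaled. With pooled reads the KO MZB level was 0.449 times that of WT MZB (exact 95% interval 0.388 to 0.519, counting error only), and the KO FoB level 1.19 times that of WT FoB (0.976 to 1.45). After rescaling, the KO MZB libraries stood at 1.01 and 0.742, inside or just above the 0.516 to 0.942 of KO FoB and above the 0.614 and 0.678 of WT FoB, while WT MZB stood at 2.12 to 2.63. The difference between cell types in the knockout change was not tested, since the gene was chosen on that change.

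The 2 cell types were also set side by side in WT cells alone. The WT libraries are among those that chose the 3 genes, so their WT values are a description too and carry no p-value. Of all genes, 85.9% were called per cell in WT MZB minus WT FoB, with a median log2 difference over genes of 0.78, and 49.5% rescaled, with a median of 0.09. Znf41-ps averaged 3.03 ± 0.324 mRNA per cell in WT MZB and 0.476 ± 0.0321 in WT FoB (SD, n = 3 and 2). Its log2 difference was 2.10 ± 0.19 (SE) per cell and 1.5 ± 0.17 rescaled, rank 206 and 209 from the top of 9690 genes, and all 3 WT MZB libraries lay above both WT FoB libraries. Separation of the same kind held for 84.5% of all genes per cell and 42.7% rescaled.

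For Cort and Cenps the WT groups overlapped per cell, while after rescaling WT MZB lay below WT FoB without overlap for both genes. For Cort the nearest rescaled values were 0.128 in WT MZB library 1 and 0.142 in WT FoB library 1, on 2 reads each. For Cenps they were 0.446 in WT MZB library 3 and 0.603 in WT FoB library 2, on 14 and 18 reads. The share of all genes separated in this way is not given here. Cort averaged 0.113 ± 0.0253 mRNA per cell in WT MZB and 0.167 ± 0.0725 in WT FoB (SD, n = 3 and 2), a log2 difference of −0.17 ± 0.24 (SE), or −0.43 ± 0.55 rescaled. Cenps averaged 0.484 ± 0.087 in WT MZB and 0.557 ± 0.219 in WT FoB, a log2 difference of −0.11 ± 0.20, or −0.60 ± 0.30 rescaled. Per cell, where the median gene was 0.78 higher in WT MZB, Cort and Cenps ranked 279 and 320 from the bottom of 9690 genes. Rescaled, they ranked 949 and 521 from the bottom. With 1 to 4 reads of Cort per WT library, a small difference would not be detectable at this depth. Per cell, levels thus ran in the order KO MZB, KO FoB, then WT FoB and WT MZB for both genes. There KO FoB overlapped WT FoB through library 2, and the WT groups were within 1 SE of each other. Rescaled, KO MZB and KO FoB overlapped for both genes. Cort stood at 2.51 and 1.64 in KO MZB and at 2.54, 0.155 and 1.30 in KO FoB. Cenps stood at 2.35 and 1.96 in KO MZB and at 2.29, 0.731 and 1.77 in KO FoB. For Znf41-ps the order per cell was WT MZB, KO MZB, then KO FoB and WT FoB, with the 2 FoB groups overlapping.

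Cort and Cenps varied together across libraries. The ratio of Cort to Cenps mRNA was 1.06 and 0.835 in KO MZB, against 0.325, 0.222 and 0.174 in WT MZB, and 1.11, 0.212 and 0.731 in KO FoB, against 0.163 and 0.542 in WT FoB. Both KO MZB libraries and KO FoB libraries 1 and 3 had ratios of 0.731 to 1.11, and KO FoB library 2 and the WT libraries had 0.163 to 0.542. The WT intervals are wide (0.00515 to 1.52 in WT MZB library 2, on 1 Cort read). Over the 10 libraries the rescaled log2 values of Cort and Cenps had a Pearson r of 0.956, a value set mainly by the distance between those 4 libraries and the others. The r of Cort with Kdm1a was −0.72 and with Znf41-ps −0.55, over the same libraries and with the same groups behind it. Without KO FoB library 2 these values were 0.962 with Cenps, −0.91 with Kdm1a and −0.62 with Znf41-ps.

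By the measure used to find genes with a like pattern (Pearson r of rescaled log2 values over the 10 libraries, among 9063 genes with a mean of at least 20 reads), Dhrs3 came first for Cort with r = 0.967. It was followed by Tspan2, a tetraspanin, with r = 0.962, Cenps itself, Rasgrp4, a Ras exchange factor, with r = 0.910, and Catsperg1, a sperm calcium channel subunit, with r = 0.906. Among the genes with that many reads the first for Cenps was Stx11, a SNARE protein of lymphocyte granule release, with r = 0.949. Then came Tspan2, Dhrs3, Clcn6 and Rasgrp4. Cort was left out of this ranking by its mean of under 20 reads, and its r with Cenps, 0.956, was higher than that of Stx11. Dhrs3 and Clcn6 lie on chromosome 4 within 15 Mb of Kdm1a, at 8.29 and 11.4 Mb on the same distal side, and the other 4 genes lie on chromosomes 3, 7 and 10.

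Dhrs3 encodes a retinaldehyde reductase that is a known target of retinoic acid. It had 2.47 and 2.63 mRNA per cell in KO MZB, against 0.0905, 0.122 and 0.0778 in WT MZB. In KO FoB it had 0.768, 0.0928 and 0.740 mRNA per cell, against 0.0590 and 0.0696 in WT FoB. The libraries high for Dhrs3 were the 4 that were high for Cort, and KO FoB library 2 again lay near the WT level, on 6 reads. Dhrs3 is named here as the gene most like Cort, so sharing its high libraries follows from that choice. It rose by 2.84 ± 0.21 on the log2 scale in MZB (SE; limma adjusted p = 2.06e-19; 2.35 rescaled, limma adjusted p = 0.00767) in 2 of 2 KO libraries. In FoB it rose by 1.06 ± 0.21 per cell (limma adjusted p = 0.00133), but 1.27 rescaled did not pass (limma adjusted p = 0.239). That rise was carried by KO libraries 1 and 3, since KO library 2 had 6 reads against 4 and 5 in WT FoB. The FoB call was lost without either WT FoB library (highest limma adjusted p 0.145) and by limma voom on recovered reads (2.44, adjusted p = 0.221), and without KO FoB library 2 the difference was 1.53.

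**Figure D2:**
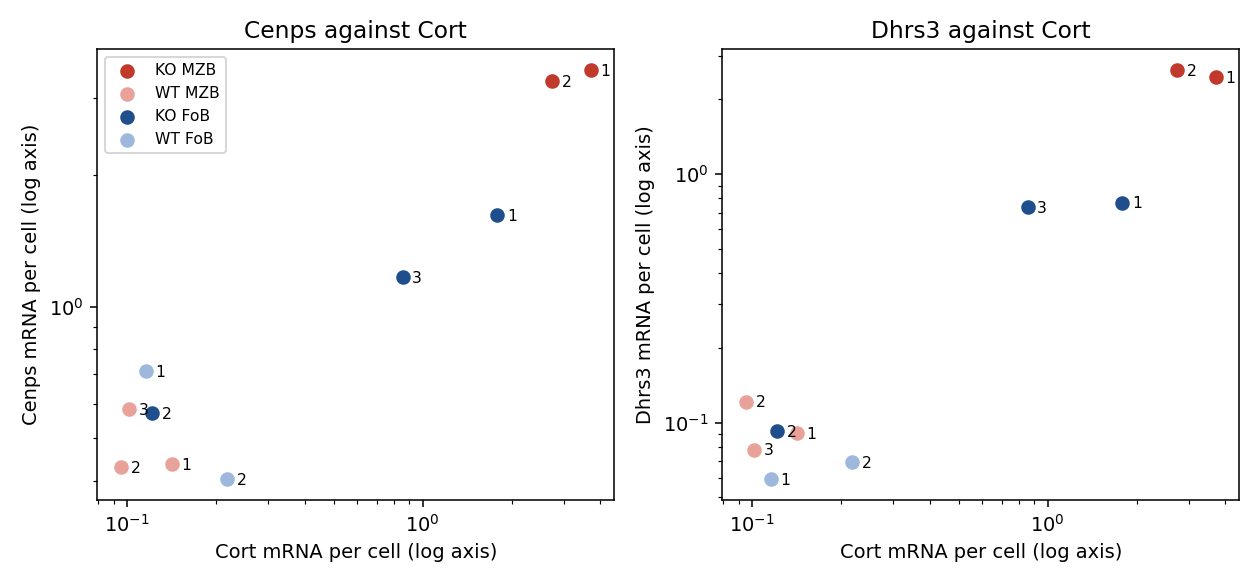
Cenps (left) and Dhrs3 (right) against Cort in mRNA per cell, both axes log, 1 point per library with its replicate number. In both panels the 2 KO MZB libraries and KO FoB libraries 1 and 3 sit apart at the upper right, and KO FoB library 2 lies among the WT libraries.

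Most genes around Cort and Cenps stayed near the shift of all genes. Within 500 kb of the pair the table has 10 other genes, the nearest being Dffa (inhibitor of the apoptotic DNase, 4.38 kb away) and Pgd (6-phosphogluconate dehydrogenase, 12.4 kb). Dffa had 6.01 and 7.08 mRNA per cell in KO MZB, against 3.72, 5.95 and 4.62 in WT MZB, a log2 difference of 0.45 ± 0.19 that did not pass (limma adjusted p = 0.0828; 0.16 rescaled, limma adjusted p = 0.334). Pgd differed by 0.31 ± 0.19 (limma adjusted p = 0.206; 0.01 rescaled). These values are close to the median shift of 0.32 over all genes in this contrast.

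Of the 10 neighbours 3 passed per cell in MZB, all higher, where 13.3% of all genes did. Kif1b, a kinesin motor 38.7 kb away, rose by 0.56 (limma adjusted p = 0.0326), Lzic, 348 kb away, by 0.59 (limma adjusted p = 0.0318), and Clstn1, a calsyntenin that links vesicles to kinesin, 448 kb away, by 1.39 ± 0.19 (limma adjusted p = 1.86e-08). Only Clstn1 of the 10 also passed after rescaling, with 1.07 (limma adjusted p = 0.00443), where 5.69% of all genes did. The calls of Kif1b and Lzic were lost on leaving out any of several MZB libraries, WT library 1 and KO library 2 among them (highest limma adjusted p 0.538 for Kif1b and 0.195 for Lzic), and by limma voom (adjusted p = 0.0658 and 0.175). Clstn1 had 2.85 and 3.22 mRNA per cell in KO MZB, against 0.771, 1.15 and 1.02 in WT MZB, with no overlap. In FoB 0 of the 10 neighbours passed on either scale, where only 0.712% of all genes did per cell and 0.516% rescaled.

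**Figure D3:**
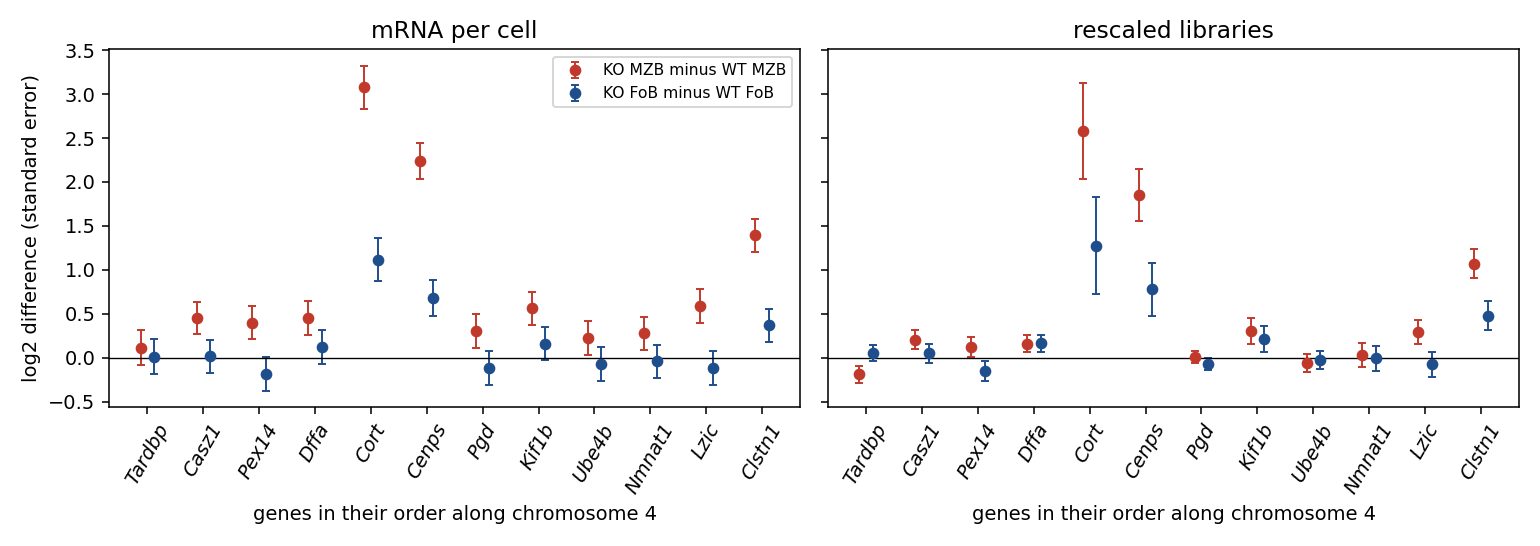
Log2 difference (points, with standard error bars) of Cort, Cenps and the 10 other genes of the table within 500 kb, in chromosome order, for KO MZB minus WT MZB and KO FoB minus WT FoB, per cell (left) and rescaled (right). Dffa and Pgd, on either side of the pair, stand at 0.45 and 0.31 per cell in MZB beside 3.08 for Cort and 2.24 for Cenps.

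Besides Znf41-ps, 3 of the 10 other genes with zinc finger family names within 15 Mb of Kdm1a were called lower in KO MZB. Within 500 kb of Znf41-ps the table has 2 genes, the predicted genes Gm13238 (5.24 kb away) and Gm13212 (164 kb away). Gm13212 had 3.10 and 2.99 mRNA per cell in KO MZB, against 6.76, 8.54 and 6.28 in WT MZB, and 1.41, 1.23 and 2.52 in KO FoB, against 0.995 and 0.775 in WT FoB. It fell by 1.15 on the log2 scale in MZB, with SE 0.20 (limma adjusted p = 6.39e-06), and by 1.40 rescaled (limma adjusted p = 0.00966). In FoB its log2 difference was 0.72 ± 0.20 (limma adjusted p = 0.0534), with every KO library above both WT libraries, as for 5.09% of all genes. Gm13238 differed by −0.33 ± 0.19 in MZB and did not pass (limma adjusted p = 0.176), on 9 to 20 reads per MZB library.

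Besides Znf41-ps, 10 genes with names of zinc finger families (Zfp or Zbtb) lie within 15 Mb of Kdm1a. In MZB 3 of them fell and 1 rose, on both scales. Of all genes 0.702% fell and 13.3% rose per cell, and 1.91% fell and 3.78% rose rescaled. In FoB 0 of the 10 passed on either scale, where 0.712% of all genes did per cell and 0.516% rescaled. Their median log2 difference in MZB was 0.22 per cell and −0.05 rescaled, beside 0.32 and 0.04 for all genes. Zfp984 had 3.17 and 3.25 mRNA per cell in KO MZB, against 5.93, 7.35 and 5.54 in WT MZB, and it fell by 0.89 (limma adjusted p = 0.000321; −1.15 rescaled, limma adjusted p = 0.00258). Zfp982 fell by 0.90 (limma adjusted p = 0.000358; −1.06 rescaled, limma adjusted p = 0.00417) and Zfp992 by 0.57 (limma adjusted p = 0.0323; −0.80 rescaled, limma adjusted p = 0.0356). The riser was Zbtb8a on the proximal side, with 1.23 and 1.57 mRNA per cell in KO MZB, against 0.317, 0.383 and 0.591 in WT MZB (log2 difference 1.23, limma adjusted p = 6.1e-07; 0.91 rescaled, limma adjusted p = 0.00947).

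The 3 genes that fell lie at 9.85 to 11.2 Mb from Kdm1a, on the distal side like Znf41-ps at 9.19 Mb. Without KO MZB library 2 the calls of Zfp982 (limma adjusted p = 0.0987) and Zfp992 (highest limma adjusted p 0.481) were lost, and that of Zfp992 also without KO MZB library 1 or WT MZB library 2. These zinc finger genes were also higher in WT MZB than in WT FoB. Their log2 differences were 2.01 for Zfp984, 2.21 for Zfp982 and 2.51 for Zfp992, beside 2.10 for Znf41-ps. Rescaled, those of the Zfp genes were 1.32, 1.74 and 1.98. The median over all genes was 0.78 per cell and 0.09 rescaled, with 85.9% and 49.5% of all genes called. The 3 genes were named for being lower in KO MZB than in WT MZB, which favours high WT MZB values. Their WT differences are therefore a description and carry no p-value. Zfp984 came second among the genes whose pattern was most like that of Znf41-ps (r = 0.984 over 10 libraries among 9062 genes), after Ndufaf4, a complex I assembly factor at r = 0.985, and before Eif4a2, AI987944 and Gk. Genes of such clusters are similar in sequence, and the sources do not state how reads matching several of them were counted. The values of Znf41-ps, Gm13212, Gm13238 and the Zfp genes may therefore share reads.

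**Figure D4:**
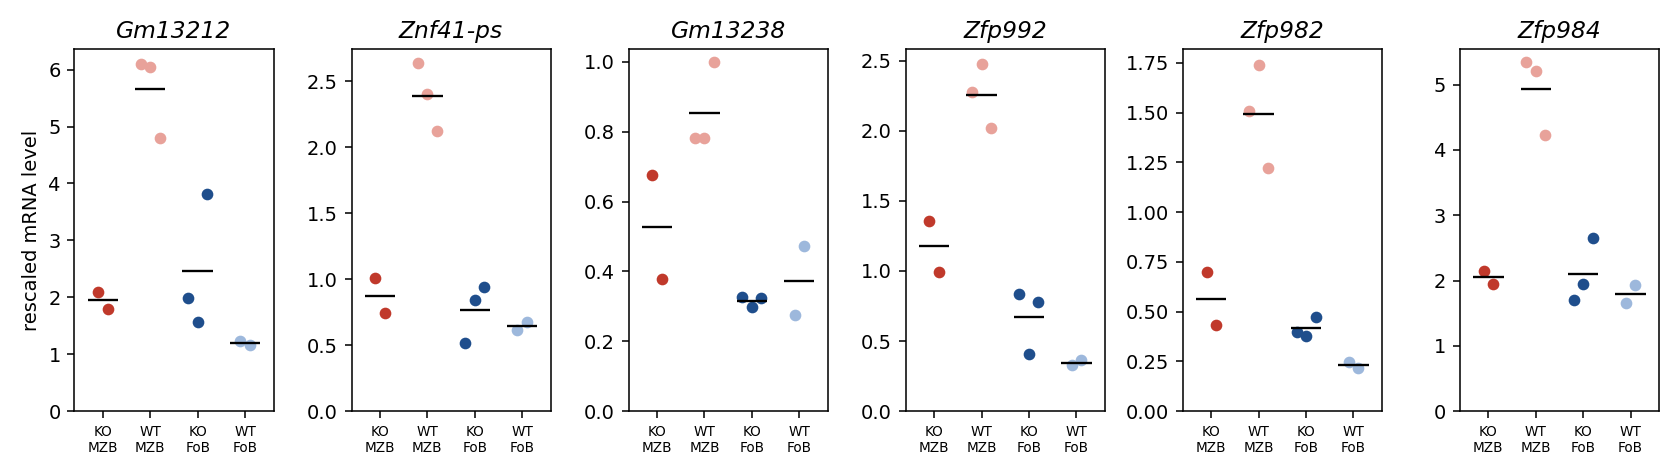
Rescaled mRNA level (linear axis starting at 0, a different range in each panel) of Gm13212, Znf41-ps, Gm13238, Zfp992, Zfp982 and Zfp984 in each library by group, with the group mean as a black line. WT MZB is highest in every panel, and for Zfp984 the KO MZB libraries lie at 2.15 and 1.95, near the 1.70 to 2.65 of KO FoB.

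Across the whole window, 225 genes other than Kdm1a and the 3 described lie within 15 Mb. In MZB 16.4% of them were called per cell (32 higher, 5 lower) and 10.2% rescaled (12 higher, 11 lower), against 14.0% and 5.69% of all genes. Called lower were 2.22% of them per cell and 4.89% rescaled, against 0.702% and 1.91% of all genes. The 37 calls per cell became 12 without KO MZB library 2, 17 without WT MZB library 1 and 94 without WT MZB library 2. Of the 362 genes of chromosome 4 beyond 15 Mb, 9.94% were called per cell and 4.7% rescaled. In FoB 1 of the 225 was called per cell (Dhrs3) and 1 rescaled (Fuca1), against 0.712% and 0.516% of all genes. Rescaled calls in MZB made up 14.1% of the 78 genes on the distal side and 8.16% of the 147 on the proximal side; whether these shares differ was not tested.

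The median log2 difference of the 225 genes in MZB was 0.37 per cell and 0.08 rescaled, beside 0.32 and 0.04 for all genes. The median gene of the window thus stood near that of all genes. Besides Dhrs3, Clstn1 and Zbtb8a, the largest rises called on both scales without overlap were Padi2, a peptidylarginine deiminase (1.19; 0.87 rescaled), Id3, an inhibitor of E proteins (1.13; 0.82 rescaled), and Clcn6, an endosomal chloride transporter (1.08; 0.77 rescaled). Besides the zinc finger genes and Gm13212, Rap1gap, which switches off the GTPase RAP1, fell by 0.57 per cell and by 0.85 rescaled (limma adjusted p = 0.0278 and 0.00556); its per-cell call was lost without any 1 of KO MZB library 1, KO MZB library 2 and WT MZB library 3. Fuca1, a lysosomal fucosidase, was the single gene of the window called in both cell types after rescaling, with log2 differences of −0.50 in MZB (limma adjusted p = 0.00349) and −0.63 in FoB (limma adjusted p = 0.00282). Per cell it passed in neither, with −0.20 in MZB (limma adjusted p = 0.402) and −0.67 in FoB (limma adjusted p = 0.113). The 2 knockout contrasts share no library.

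**Figure D5:**
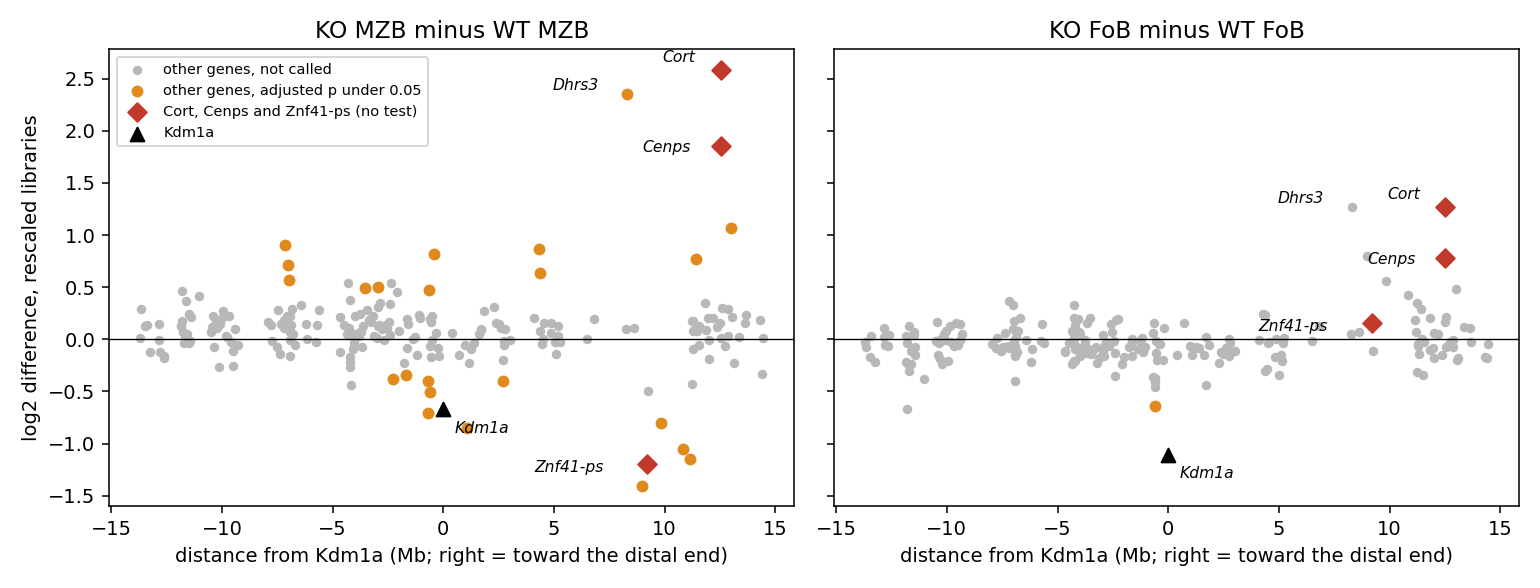
Log2 difference of rescaled values against distance from Kdm1a in Mb, 1 point per gene within 15 Mb, for KO MZB minus WT MZB (left) and KO FoB minus WT FoB (right). Orange points are other genes called at a limma adjusted p under 0.05, diamonds are Cort, Cenps and Znf41-ps, and the triangle is Kdm1a; Cort at 2.58 and Dhrs3 at 2.35 stand above the rest in MZB.

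The limit of 15 Mb belongs to the rule by which the genes were chosen. Among genes called on both scales in MZB, or chosen, Clstn1 at 13.0 Mb, Cenps and Cort are the last inside it, and Scmh1 at 16.0 Mb, Mast2 at 20.1 Mb and Cdkn2c at 26.9 Mb are the first outside it, all 3 on the proximal side. Scmh1, a Polycomb-related gene, averaged 3.36 mRNA per cell in KO MZB and 1.94 in WT MZB.

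The partners of the 2 protein-coding genes were looked up in lists chosen by role. Of 9 cortistatin and somatostatin ligands and receptors, Cort was the 1 gene with values, and the receptors through which the peptide acts were not analysed here. Of the inner centromere and CENP-A loading genes, 15 besides Cenps are in the table, with a median log2 difference of 0.35 per cell and 0.08 rescaled in MZB. Cenpa, the centromeric histone, averaged 6.23 mRNA per cell in KO MZB and 3.42 in WT MZB, and rose by 0.82 (limma adjusted p = 0.00127; 0.52 rescaled, limma adjusted p = 0.0069), a call lost without KO MZB library 2 (limma adjusted p = 0.116). Cenpx, the direct partner of Cenps, averaged 5.64 in KO MZB and 3.77 in WT MZB and rose by 0.54 per cell (limma adjusted p = 0.0468), which did not pass after rescaling (0.25, limma adjusted p = 0.321) nor without KO MZB library 2, WT MZB library 1 or WT MZB library 3 (highest limma adjusted p 0.63), nor by limma voom (adjusted p = 0.302). These 2 of 15 compare with 13.3% of all genes higher per cell, and the 1 of 15 higher after rescaling with 3.78%. The other 13 did not pass on either scale.

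Of the Fanconi anaemia core and FANCM anchor genes, 14 besides Cenps are in the table. In MZB 2 of them rose per cell, Cenpx and Faap24, a partner of FANCM (Faap24 by 0.55, limma adjusted p = 0.0395), and 0 passed after rescaling; the Faap24 call was lost without any 1 of 4 MZB libraries and by limma voom (adjusted p = 0.218). That is 2 of 14, beside the 13.3% of all genes that were higher per cell. All 6 corepressor genes through which KRAB zinc finger proteins act, Trim28 and Setdb1 among them, are in the table and 0 passed in MZB, beside 14.0% of all genes called per cell; Trim28 differed by 0.53 (limma adjusted p = 0.06; 0.22 rescaled). In FoB 0 genes of these lists other than the 3 chosen passed on either scale by limma, beside 0.712% of all genes per cell and 0.516% rescaled. The lists overlap in Cenps and Cenpx.

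In sorted bulk RNA a change in the RNA of each cell and a change in the share of cells of one kind cannot be told apart. Markers of some other cells moved with the knockout: the 3 macrophage and monocyte markers in the table, of 8 listed (Cd68, Ly6c2 and Itgam), summed to 7.60 to 10.4 mRNA per cell in KO MZB and 2.65 to 4.43 in WT MZB, and to 3.54 to 4.11 in KO FoB and 1.12 to 1.92 in WT FoB. The 7 follicular markers summed to 218 to 262 in KO MZB and 124 to 180 in WT MZB, with 230 to 286 in KO FoB and 232 to 296 in WT FoB. Lck, the 1 T cell marker of 8 in the table and itself 6.98 Mb from Kdm1a, had 7.39 to 8.09 in KO MZB and 3.80 to 4.54 in WT MZB, with 2.70 to 4.13 in KO FoB and 2.75 to 3.31 in WT FoB. The 2 dendritic cell markers of 6 in the table (Flt3 and Cst3) summed to 19.5 to 26.4 in KO MZB and 10.6 to 13.9 in WT MZB, with 10.3 to 15.5 in KO FoB and 10.05 to 12.6 in WT FoB. Itgb3, the 1 platelet marker of 4 in the table, had 2.10 to 2.40 in KO MZB and 0.869 to 1.06 in WT MZB, with 1.29 to 1.55 in KO FoB and 1.58 to 1.91 in WT FoB. Lck, Flt3, Cst3, Itgb3, Ly6c2 and Itgam were called higher in MZB on both scales, as were 3 of the 7 follicular markers. Of all genes 13.3% were called higher there per cell and 3.78% rescaled. In FoB Flt3 and Ly6c2 were called higher on both scales and Itgam rescaled only, beside 0.413% and 0.392% of all genes. The 5 B cell markers summed to 1127 to 1261 in KO MZB and 759 to 1013 in WT MZB. In FoB their sums were 445 to 603 for KO and 511 to 619 for WT. In the table are 0 of the neutrophil, erythroid and NK markers. The part of such cells in the differences of Cort, Cenps and Znf41-ps was not tested.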

How the data were processed

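Poly(A)-selected stranded libraries were made with a KAPA kit from RNA of 50000 sorted cells each, per the labels' protocols; STAR and mm10 are named per the submitters' processing notes. Each gene has 1 signal value for each library in the deposited table, which the authors name mRNA per cell. Counter, annotation, treatment of multi-mapping reads and the factor between reads and molecules: not given in the sources used here. Cell type and LSD1 status in the labels set the groups, and all columns were used.

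Entrez identifiers were matched to RefSeq symbols and positions on GRCm38.p6, the assembly of mm10 (9681 of 9690 matched). Whole reads were recovered for 100% of genes (largest deviation 2.95e-05 reads, limit 0.002), with medians of 184 to 319 reads per gene and library; intervals are exact (95%) and cover counting error only. The test was limma's moderated fit (version 3.58.1, R 4.3.3, with trend) on log2(value + 0.3), all 10 libraries, 1 coefficient per group, Benjamini-Hochberg over 9690 genes, threshold 0.05. The filter of 0.3 in 2 libraries removed 0 genes. For rescaling, log ratios of each library to the average library were trimmed (0.3 by ratio, 0.05 by level) and averaged. Scripts were tested on simulated data. Distances are between gene bodies.

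Named genes were the 3 chosen genes and Kdm1a, all genes within 500 kb of them, genes within 15 Mb called in both cell types, up to 6 per direction with the largest difference called on both scales without overlap and a mean of at least 1 mRNA per cell, the 5 with the most similar pattern (predicted genes left out), and list genes that were called. The 3 genes, the lists and the tests were chosen with earlier results of these data known. List counts leave out the 3 genes.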

Additional observations from a re-analysis of the deposited data

Results flagged for a closer look

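Among the 22 other genes named here within 15 Mb of Kdm1a, 4 (18.2%) moved in opposite directions in the 2 cell types. For these 4, KO MZB and KO FoB libraries all lay on opposite sides of their cell type's WT mean, per cell and rescaled. The log2 difference in MZB minus that in FoB was −1.87 for Gm13212, −1.24 for Zfp982, −1.03 for Zfp992 and 0.59 for Pex14, a peroxisomal import protein 25.2 kb from the Cort and Cenps pair. The first 3 were lower in KO MZB than in WT MZB and higher in KO FoB than in WT FoB, with Gm13212 at −1.15 in MZB and 0.72 in FoB. These 3 were named for being lower in KO MZB, which sets 1 side of that pattern. Over all 9690 genes 10.7% moved in opposite directions in this way, 902 higher in KO MZB and lower in KO FoB and 137 (1.41%) the other way round. Of the 225 other genes within 15 Mb, 12.9% did so, 24 and 5 (2.22%) in these directions. The KO and WT libraries of Pex14 overlapped in both cell types and it passed in neither (limma adjusted p = 0.112 in MZB and 1 in FoB). These differences between the cell types were not tested. Reads per library were fewest for Zfp982 in FoB, with 25, 31 and 42 in KO FoB against 22 and 17 in WT FoB.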

How the results depend on the processing

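Leaving out single libraries kept the direction of each of the 3 genes in both knockout contrasts: in MZB the log2 differences ran 2.88 to 3.28 for Cort, 2.19 to 2.33 for Cenps and −1.11 to −0.89 for Znf41-ps, and in FoB 0.59 to 1.74, 0.42 to 0.99 and 0.01 to 0.28. In WT MZB minus WT FoB they ran −0.33 to −0.01, −0.37 to 0.15 (Cenps, 0.15 without WT FoB library 1) and 2.02 to 2.15. In MZB limma voom on recovered reads gave 4.01, 2.45 and −1.49 for Cort, Cenps and Znf41-ps, a smaller pseudocount (0.1) 3.95 and 2.59 for the first 2, one of 0.9 2.01, 1.63 and −0.79, and rescaling 2.58, 1.85 and −1.20. With a mean of at least 1 mRNA per cell required, Cort was not in the table tested. Counts of called genes moved more. In MZB 1356 genes became 551 rescaled and 528 with a replicate block, and 272 to 2791 with 1 library left out (272 without KO library 2, 484 without WT library 1, 2791 without WT library 2). Of the 225 neighbours in MZB, 37 became 23 rescaled, 19 with the block, 58 with the larger pseudocount and 12 to 94 with 1 library left out (12, 17 and 94 without the same libraries). In FoB 69 became 128 with the compared groups alone, 107 by voom and 39 to 106 with 1 library left out (39 without WT library 1, 106 without KO library 3), and 1 neighbour became 2 with the compared groups alone, 2 with the smaller pseudocount, 3 by voom (0 higher and 3 lower, Dhrs3 not among them) and 0 to 4 with 1 library left out (0 without WT library 2, 3 without KO library 1, 4 without KO library 2). In WT MZB minus WT FoB 8323 became 4998 by voom and 4796 rescaled, and 6200 to 8719 with 1 library left out. The cause of these shifts was not tested. Where 1 library was left in a group, it is assumed to vary like the others. Whether replicate numbers in the labels pair the libraries could not be decided. Deviations from the group mean correlated over genes, for same-numbered libraries, at 0.188 and 0.150 in MZB, 0.060 and 0.002 in FoB and 0.031 and −0.116 in WT. In a group of 2 libraries the deviations mirror each other: KO MZB library 2 with WT MZB library 1 gave −0.188. The correlations are thus not separate and cannot exclude pairing. With the block the MZB values were 3.12, 2.31 and −0.99 for Cort, Cenps and Znf41-ps. The block ended the MZB calls of Cenpx, Faap24, Kif1b, Lzic, Rap1gap and Zfp992 (limma adjusted p 0.0674 to 0.182). The smaller pseudocount ended those of these genes other than Lzic (0.0593 to 0.0708), and the compared groups alone those of Cenpx and Kif1b (0.0518 and 0.0504). The pooled ratios and correlations without KO FoB library 2 were chosen after seeing the data. Depth limits Cort most, with 1 to 4 reads in each WT library.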
